A study of Mus musculus with 6 samples.

Results

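The lysosomal genes described here are 42 listed genes of the lysosome: the cathepsins and other lysosomal proteases, the 2 cystatins Cst3 and Cstb, glycosidases, sulfatases, lipid hydrolases with their activators, membrane proteins and proton pump subunits. Each gene was read from its probe set with the highest mean among those that carried 1 gene symbol, and 40 of the 42 were found among 12393 such genes. Cd63 and Atp6v0d2 had no such probe set and are not analysed here. The samples were 6 arrays of RNA from CD4-CD8- (double-negative, DN) cells of C57BL/6 fetal thymus lobes, taken at gestation day 15 and cultured for 6 days to an age of 21 days post coitum. One set of cells, thymocytes, came from the ground lobes, and the other, emigrants, from the buffer that rinsed the lobes. Cultures held 10 nM TCDD (2,3,7,8-tetrachlorodibenzo-p-dioxin), a ligand of the aryl hydrocarbon receptor (AHR), or the solvent dioxane, which the labels put at 0.1% by volume for the thymocyte control and leave without a concentration for the emigrant controls. Thymocytes with dioxane and thymocytes with TCDD had 1 array each, and emigrants with dioxane and emigrants with TCDD had 2 each, numbered 1 and 2. RNA came from pooled DN cells, and the labels name no separate animals or cultures, so that any p given below rests on a spread among arrays that may be technical only. Cells were enriched with beads against CD4 and CD8 to a stated purity above 95%, a step that does not remove cells that carry neither marker.

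Lysosomes are acidic organelles in which hydrolases break down proteins, glycans and lipids that arrive by endocytosis, phagocytosis and autophagy. Cathepsins are their proteases, cystatins are inhibitors of the cysteine cathepsins, and a vacuolar proton pump keeps the lumen acidic. Phagocytes such as macrophages carry many lysosomes, thymic macrophages clear dying thymocytes, and cathepsin L in cortical thymic epithelium takes part in producing the peptides on which CD4 T cells are selected. Many lysosomal genes have in their promoters a CACGTG element that is bound by the transcription factor TFEB and its relatives, while the liganded AHR binds the core GCGTG.

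Promoter sequence is shown for 4 of the genes as a description. Since CACGTG is already known from lysosomal genes, its share among the genes listed here is not independent evidence. RefSeq promoters of the build GRCm38.p6 were matched by symbol for 37 of the 42 listed genes, 36 of them measured, and both strands of the 250 bases before each start were searched. CACGTG was found for 14 of the 37 genes (37.8%), against 9.19% of the 9887 measured genes with a promoter and 6.86% of all genes in the table. Its longer form TCACGTG, which contains CACGTG, was found for 13 of 37 (35.1%), against 5.03% and 3.58%. The AHR core GCGTG was found for 13 of 37 (35.1%), against 44.7% and 30.9%. Each line below gives the 250 bases before the start in the direction of transcription, with CACGTG in capitals. Lamp1, an abundant glycoprotein of the lysosomal membrane, is on the plus strand at chr8:13158911-13159160 and holds 4 copies, which begin at positions -61, -45, -28 and -15, counted with -1 as the base just before the start. Ctsd, the aspartic protease cathepsin D, is on the minus strand at chr7:142387828-142388077 and holds 2, beginning at -245 and -98. Ctsa, the serine carboxypeptidase that protects beta-galactosidase and neuraminidase, has 2 promoters in the table, and the one shown, on the plus strand at chr2:164833523-164833772, holds 1 copy at -12. Cst3, the secreted inhibitor cystatin C, is on the minus strand at chr2:148875513-148875762 and holds none.
Lamp1: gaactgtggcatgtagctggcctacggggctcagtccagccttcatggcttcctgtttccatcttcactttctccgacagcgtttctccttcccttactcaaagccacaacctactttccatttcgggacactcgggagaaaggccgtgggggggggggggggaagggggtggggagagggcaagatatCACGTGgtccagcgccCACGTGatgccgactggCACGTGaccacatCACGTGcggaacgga
Ctsd: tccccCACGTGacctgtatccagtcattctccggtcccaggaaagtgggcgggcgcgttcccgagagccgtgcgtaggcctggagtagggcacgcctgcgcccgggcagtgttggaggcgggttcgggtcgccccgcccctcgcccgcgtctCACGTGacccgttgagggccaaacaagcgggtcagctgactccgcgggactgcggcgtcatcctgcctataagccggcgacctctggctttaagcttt
Ctsa: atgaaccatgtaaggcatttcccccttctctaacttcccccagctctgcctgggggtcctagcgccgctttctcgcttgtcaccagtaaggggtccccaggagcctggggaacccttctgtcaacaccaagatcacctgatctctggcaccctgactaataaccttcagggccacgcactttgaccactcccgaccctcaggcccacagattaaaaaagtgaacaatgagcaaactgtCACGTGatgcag
Cst3: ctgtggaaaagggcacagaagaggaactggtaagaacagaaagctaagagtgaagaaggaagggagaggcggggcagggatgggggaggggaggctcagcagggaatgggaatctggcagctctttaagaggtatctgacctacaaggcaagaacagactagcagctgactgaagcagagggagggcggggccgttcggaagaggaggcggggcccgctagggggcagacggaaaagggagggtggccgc

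Values are the log2 RMA values as deposited, so that 1 unit is a 2-fold difference. The median over all probe sets lay between 4.84 and 4.88 on the 6 arrays, and the highest of 27 bacterial control probe sets between 4.32 and 4.92. This highest control was taken as background on the assumption that no target for these probe sets was added. Of the 40 genes, 35 were above that control on all 6 arrays, 4 were under it on 1 to 5 arrays (Lgmn, Gla, Neu1 and Ids), and Naglu was under it on all 6. The summed level of 24 macrophage marker genes was 10.38 and 10.94 in thymocytes, 14.15 and 12.14 in the dioxane emigrants 1 and 2, and 14.33 and 13.59 in the TCDD emigrants (log2 of the sum of linear values). Of these 24 markers, 7 were under the control on both thymocyte arrays (Mrc1, Mertk, Itgam, Marco, Aif1, Spi1 and Apoe), and 1 to 3 on each emigrant array. The 16 T-lineage genes summed to 13.59 and 12.32 in thymocytes, 10.22 and 10.14 in emigrants 1, and 13.12 and 11.53 in emigrants 2, each with dioxane first. The emigrant arrays numbered 1, thus stood apart, with 4 and 7 of the 16 T-lineage genes under the control, and they also had more neutrophil RNA, with 13 markers summing to 13.29 and 14.01 against 10.04 and 11.85 in emigrants 2. Their 8 erythroid markers summed to 11.32 and 10.85, against 7.87 and 7.58. The 5 listed AHR targets check the treatment. Cyp1b1 measured 6.73 with dioxane and 10.35 with TCDD in thymocytes, 4.66 and 5.90 in emigrants 1, and 4.72 and 8.95 in emigrants 2. All 5 were higher with TCDD in thymocytes and in emigrants 2 (51.5% and 45.3% of all genes), with median differences of 3.62 and 3.50. In emigrants 1 the median was -0.01, with Cyp1b1 at 1.24, Cyp1a1 at 0.26, Tiparp at -0.01, Ahrr at -0.42 and Nqo1 at -0.76, so that these targets do not clearly show the labelled treatment in that pair.

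**Figure D1:**
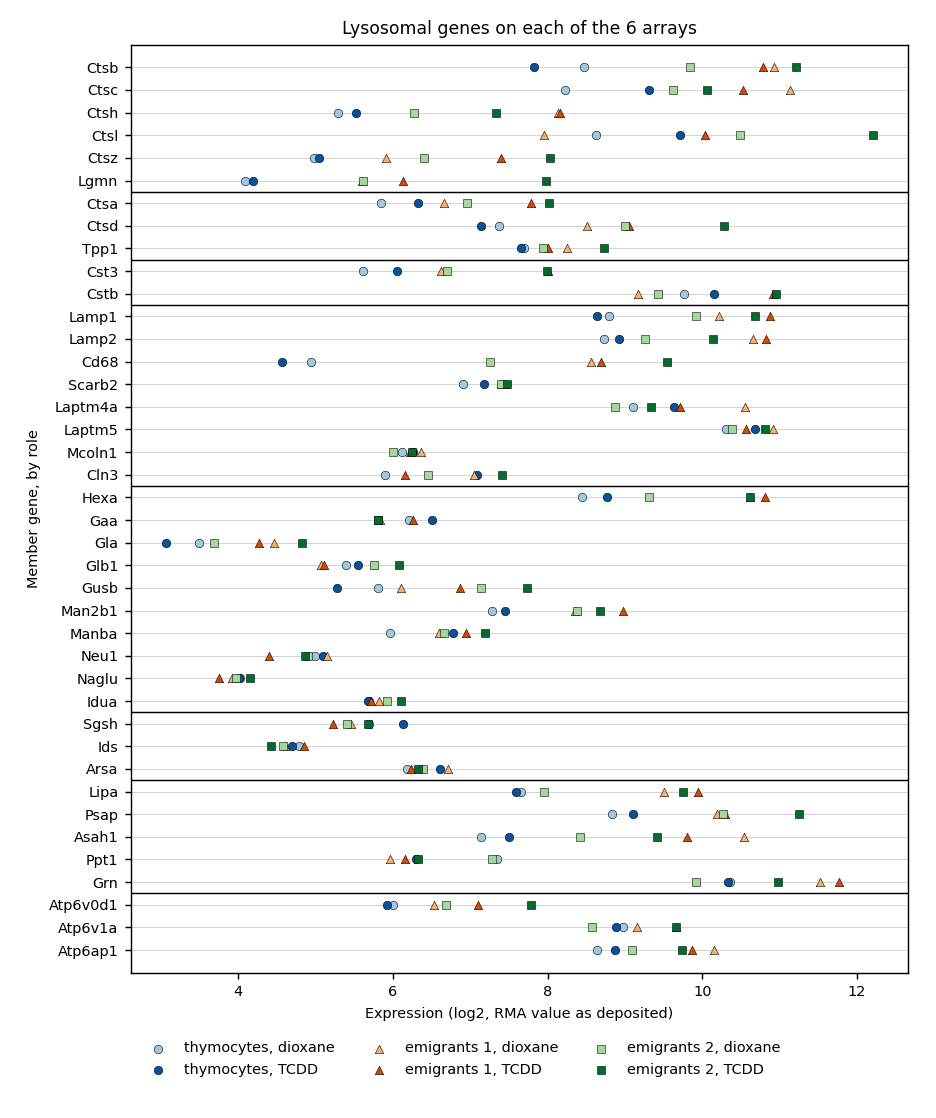
Log2 RMA value (horizontal axis) of each of the 40 lysosomal genes (vertical axis, grouped by role with lines between roles) on the 6 arrays, 1 point per array. For Cd68, Ctsb, Asah1 and Lgmn all 4 emigrant points lie to the right of both thymocyte points.

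The comparison of emigrants with thymocytes asks where lysosomal transcripts were more abundant irrespective of treatment. Most of the 40 genes measured higher in emigrants, with a median difference of 0.98 on the log2 scale against -0.04 over all genes, and 34 of 40 were above 0, against 44.0% of all genes. Cd68, Ctsb, Asah1, Lgmn and Ctsh had the largest differences, while the 3 sulfatases lay between -0.47 and 0.02. Neither a member nor any other of the 12393 genes passed an adjusted p under 0.05 (limma with treatment in the model, 4 arrays against 2, 0.0% called), and the smallest adjusted p was 0.165 over all genes and 0.32 among the members. At an unadjusted p under 0.05 limma had 880 of all genes, and 22 members were higher, against 3.2% of all genes, and 0 lower, against 3.9%. On the probe sets used, all 4 emigrant arrays were above both thymocyte arrays for 23 members, against 5.46% of all genes, and for 1 all were below, against 10.8%. In bulk RNA fewer cells of a type and less RNA per cell cannot be told apart.

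**Figure D2:**
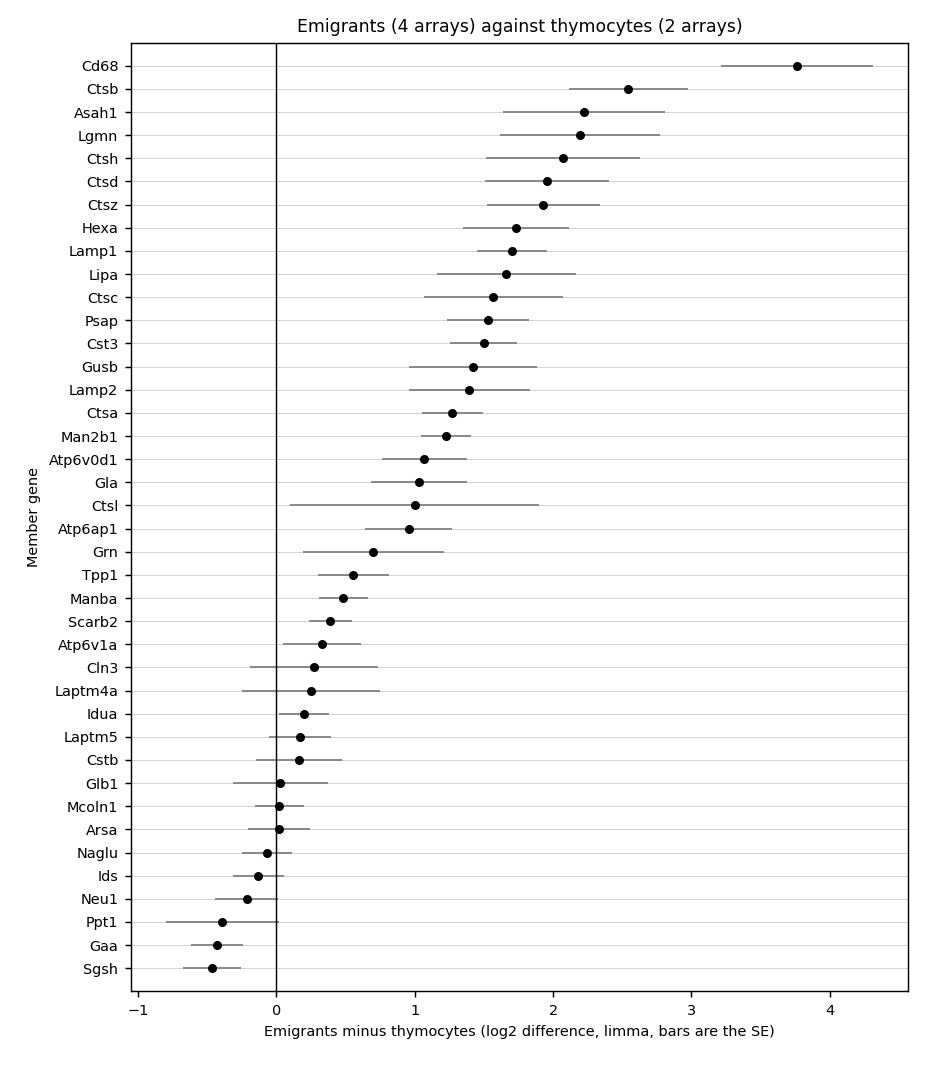
Difference between emigrants and thymocytes (horizontal axis, log2, limma with treatment in the model) for each of the 40 genes (vertical axis), with bars of 1 SE over 4 emigrant and 2 thymocyte arrays. Cd68 lies farthest to the right at 3.76 and Sgsh farthest to the left at -0.47.

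Among the cysteine cathepsins, Ctsb (cathepsin B, an abundant endo- and exopeptidase) measured 8.48 with dioxane and 7.82 with TCDD in thymocytes, 10.92 and 10.79 in emigrants 1, and 9.85 and 11.21 in emigrants 2. Ctsh, an aminopeptidase, measured 5.29 with dioxane and 5.52 with TCDD in thymocytes, 8.14 and 8.16 in emigrants 1, and 6.27 and 7.33 in emigrants 2. Lgmn (legumain, which cleaves after asparagine and processes other cathepsins) measured 4.08 with dioxane and 4.19 with TCDD in thymocytes, 5.60 and 6.13 in emigrants 1, and 5.62 and 7.97 in emigrants 2. For all 3 the lowest emigrant array was above the highest thymocyte array, and the differences were 2.54 ± 0.43, 2.07 ± 0.56 and 2.19 ± 0.58 (log2 ± SE, limma). Both thymocyte values of Lgmn were under the bacterial control, so its thymocyte level is not separated from background. Ctsz, a carboxypeptidase, measured 4.97 with dioxane and 5.04 with TCDD in thymocytes, 5.91 and 7.40 in emigrants 1, and 6.41 and 8.03 in emigrants 2. Ctsc, which activates the serine proteases of granules, measured 8.22 with dioxane and 9.31 with TCDD in thymocytes, 11.13 and 10.53 in emigrants 1, and 9.62 and 10.06 in emigrants 2. These differed between sources by 1.93 ± 0.41 and 1.57 ± 0.50, again without overlap. Ctsl (cathepsin L), in contrast, measured 8.63 with dioxane and 9.71 with TCDD in thymocytes, 7.95 and 10.04 in emigrants 1, and 10.49 and 12.20 in emigrants 2. Its emigrant and thymocyte arrays overlapped, since emigrants 1 with dioxane read lower than both thymocyte arrays, and the difference was 1.00 ± 0.90.

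Of the other proteases, Ctsd measured 7.38 with dioxane and 7.13 with TCDD in thymocytes, 8.51 and 9.06 in emigrants 1, and 9.0 and 10.28 in emigrants 2. Ctsa measured 5.85 with dioxane and 6.32 with TCDD in thymocytes, 6.67 and 7.79 in emigrants 1, and 6.96 and 8.02 in emigrants 2. Both were higher on every emigrant array than on either thymocyte array, by 1.95 ± 0.45 and 1.27 ± 0.22. Tpp1, a tripeptidyl peptidase mutated in a childhood ceroid lipofuscinosis, differed by 0.56 ± 0.26. The inhibitor Cst3 measured 5.61 with dioxane and 6.05 with TCDD in thymocytes, 6.62 and 8.01 in emigrants 1, and 6.69 and 8.00 in emigrants 2, and emigrants were above thymocytes by 1.5 ± 0.24. Cstb (cystatin B, or stefin B), the intracellular inhibitor, measured 9.76 with dioxane and 10.15 with TCDD in thymocytes, 9.17 and 10.91 in emigrants 1, and 9.43 and 10.96 in emigrants 2. Unlike Cst3, Cstb did not separate the sources (0.16 ± 0.31). On the probe set used, both dioxane emigrant arrays were below both thymocyte arrays and both TCDD emigrant arrays above them. On its other probe set, with a source difference of 0.25, dioxane emigrants 2 (6.44) read above dioxane thymocytes (6.06).

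Among membrane proteins, Cd68, a glycoprotein of late endosomes that is used as a macrophage marker, measured 4.94 with dioxane and 4.57 with TCDD in thymocytes, 8.56 and 8.69 in emigrants 1, and 7.26 and 9.54 in emigrants 2. Its difference, 3.76 ± 0.55, was the largest of the 40 and had an adjusted p of 0.32 by limma. Lamp1 and Lamp2, the main glycoproteins of the lysosomal membrane, were higher in emigrants by 1.70 ± 0.25 and 1.39 ± 0.44. Scarb2, the receptor that carries beta-glucocerebrosidase to the lysosome, differed by 0.39 ± 0.15, but its other probe set read -0.04. The remaining membrane proteins were closer to 0: 0.27 for Cln3, 0.25 for Laptm4a, 0.17 for Laptm5 and 0.02 for the calcium channel Mcoln1. Of the proton pump subunits, Atp6v0d1 differed by 1.07 ± 0.31, Atp6ap1 by 0.96 ± 0.32 and Atp6v1a by 0.33 ± 0.28.

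Of the 5 lipid hydrolases and activators, Asah1, Lipa and Psap were higher on every emigrant array than on either thymocyte array on the probe sets used. Grn and Ppt1 were not. Asah1, the acid ceramidase, measured 7.14 with dioxane and 7.51 with TCDD in thymocytes, 10.54 and 9.81 in emigrants 1, and 8.42 and 9.41 in emigrants 2. Lipa, the acid lipase that releases cholesterol from its esters, measured 7.66 with dioxane and 7.59 with TCDD in thymocytes, 9.50 and 9.94 in emigrants 1, and 7.95 and 9.76 in emigrants 2. They differed between sources by 2.22 ± 0.58 and 1.66 ± 0.50, without overlap on the probe sets used. Another probe set of Lipa read 5.84 in dioxane emigrants 2, below both thymocyte arrays (6.08 and 5.99). The lowest source difference among the 3 probe sets of Lipa was 0.40. Psap, the precursor of the saposins that present sphingolipids to hydrolases, was higher in emigrants by 1.53 ± 0.30. Grn (progranulin) measured 10.35 with dioxane and 10.33 with TCDD in thymocytes, 11.52 and 11.77 in emigrants 1, and 9.91 and 10.98 in emigrants 2, with dioxane emigrants 2 below both thymocyte arrays and a difference of 0.70 ± 0.51. Ppt1, a thioesterase that removes palmitate from proteins, measured 7.35 with dioxane and 6.30 with TCDD in thymocytes, 5.96 and 6.16 in emigrants 1, and 7.29 and 6.33 in emigrants 2. It differed by -0.39 ± 0.41, but its other probe set read 0.24.

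Glycosidases and sulfatases were divided. Hexa, the alpha subunit of beta-hexosaminidase, measured 8.44 with dioxane and 8.76 with TCDD in thymocytes, 10.61 and 10.81 in emigrants 1, and 9.31 and 10.61 in emigrants 2. Hexa, Gusb (beta-glucuronidase) and Man2b1 (lysosomal alpha-mannosidase) were higher in emigrants by 1.73 ± 0.38, 1.42 ± 0.46 and 1.23 ± 0.18, with no overlap between the sources on the probe sets used. On their other probe sets Gusb differed by 0.21 and Man2b1 by 0.33, and there the sources overlapped. Gla (alpha-galactosidase A) measured 3.49 with dioxane and 3.07 with TCDD in thymocytes, 4.46 and 4.26 in emigrants 1, and 3.69 and 4.83 in emigrants 2. Its difference of 1.03 ± 0.35 was not seen on its other probe set (0.02), and Gla was under the bacterial control on 4 of the 6 arrays. Manba (beta-mannosidase) differed by 0.48 ± 0.18, while Idua, Glb1 and Naglu were at 0.20, 0.03 and -0.07. The other probe set of Idua read -0.22. Gaa, the glycogen-degrading alpha-glucosidase, measured 6.21 with dioxane and 6.50 with TCDD in thymocytes, 5.83 and 6.26 in emigrants 1, and 5.81 and 5.81 in emigrants 2. Neu1, the lysosomal sialidase, measured 4.99 with dioxane and 5.10 with TCDD in thymocytes, 5.15 and 4.40 in emigrants 1, and 4.90 and 4.86 in emigrants 2. Both had a small difference with emigrants lower, -0.43 ± 0.19 and -0.22 ± 0.23, and other probe sets read 0.00 for Gaa and up to 0.34 for Neu1. Sgsh, a sulfatase of heparan sulfate, measured 5.69 with dioxane and 6.13 with TCDD in thymocytes, 5.46 and 5.23 in emigrants 1, and 5.41 and 5.68 in emigrants 2. It was the member whose 4 emigrant arrays all read below both thymocyte arrays, by -0.47 ± 0.21, yet its other probe set read 0.00. Ids, the iduronate sulfatase, measured 4.79 with dioxane and 4.70 with TCDD in thymocytes, 4.60 and 4.85 in emigrants 1, and 4.58 and 4.42 in emigrants 2. It differed by -0.13 ± 0.19, with up to 0.20 on its other probe sets. Arsa (arylsulfatase A) differed by 0.02 ± 0.23.

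The source difference was also read within each treatment, array against array. With dioxane the median of the 40 genes was 0.87 for emigrants 1 and 0.51 for emigrants 2, and with TCDD it was 1.08 and 0.97. In all 4 differences 9 members were at least 2-fold higher in emigrants on the probe sets used (Asah1, Cd68, Cst3, Ctsb, Ctsd, Lamp1, Lgmn, Man2b1 and Psap), against 0.492% of all genes. Markers of several cell types also differed between the sources. Of the macrophage markers 24 of 24 were higher in emigrants, against 44.0% of all genes, with a median difference of 2.00. Among them Itgam, at 0.03, was under the bacterial control on all 6 arrays. For 16 of 24 all 4 emigrant arrays were above both thymocyte arrays, against 5.46% of all genes. The median difference was 2.29 for the neutrophil, 1.48 for the erythroid, -1.55 for the T-lineage and -0.73 for the stromal markers. By array number, with dioxane and then TCDD, the erythroid median was 3.57 and 2.67 for emigrants 1 but -0.12 and -0.15 for emigrants 2. The T-lineage median was -2.76 and -2.22 for emigrants 1 and -0.29 and -0.43 for emigrants 2. The neutrophil median was 2.83 and 4.16 for emigrants 1 and 0.46 and 1.80 for emigrants 2. The 3' minus 5' signal of the Gapdh control, a measure of RNA degradation and amplification, was 6.10 and 5.86 in thymocytes and between 4.69 and 5.60 in emigrants. The part of these measures in the lysosomal difference was not tested. Without the thymocyte TCDD array the median of the 40 genes was 0.64. With both emigrant arrays numbered 1 left out the median was 0.77, and 0 members passed the adjusted p by limma. With both numbered 2 left out, 8 members passed the adjusted p by limma, against 225 of all genes (1.82%). These 8 were Asah1, Cd68, Ctsb, Ctsh, Hexa, Lamp2, Lgmn and Lipa. The smallest adjusted p over all genes in that limma fit was 0.0058. Either of these 2 fits had 1 array per source and treatment and thus no replicate. Their calls rest on the assumption that the TCDD difference was the same in both sources.

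**Figure D3:**
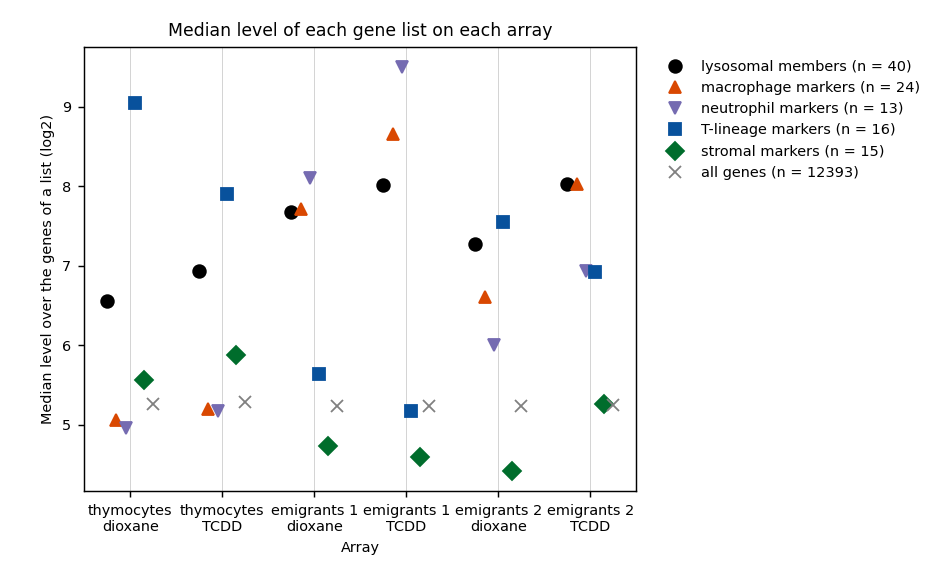
Median log2 level over the genes of each list (vertical axis) on each of the 6 arrays (horizontal axis, points shifted sideways for legibility). The median of the 40 lysosomal genes was 6.56 and 6.93 in thymocytes and between 7.27 and 8.03 in emigrants, and the macrophage median was 5.05 and 5.20 in thymocytes and between 6.60 and 8.65 in emigrants.

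Emigrants with TCDD were then compared with emigrants with dioxane. The 40 genes had a median difference of 0.47 against -0.02 over all genes, and 35 of 40 were higher with TCDD, against 46.5% of all genes. Both cystatins, cathepsins Z and L, legumain, cathepsin A, Cd68 and acid lipase had the largest differences, each above 1 log2 unit. By limma (2 arrays against 2) 0 of 12393 genes passed the adjusted p (0.0% called), and the smallest adjusted p was 1. At an unadjusted p under 0.05 there were 255 genes, and among the members 6 were higher, against 1.24% of all genes, and 0 lower, against 0.815%. These 6 were Cstb (1.63 ± 0.24), Ctsz (1.56 ± 0.35), Cst3 (1.35 ± 0.22), Ctsa (1.09 ± 0.25), Atp6v1a (0.79 ± 0.29) and Lamp1 (0.71 ± 0.25). On the probe sets used, both TCDD arrays were above both dioxane arrays for 16 members, against 10.5% of all genes. They were below them for 2, Arsa and Neu1, against 14.2%. Of the 16, Atp6v1a, Lipa, Man2b1, Psap and Scarb2 had another probe set on which the groups overlapped. On another probe set of Neu1 both TCDD arrays (4.46 and 4.51) were above both dioxane arrays (3.67 and 4.24). The median was 0.11 when dioxane emigrants 2 were left out, against -0.03 over all genes. It was 0.31 when TCDD emigrants 2 were left out, against -0.01.

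**Figure D4:**
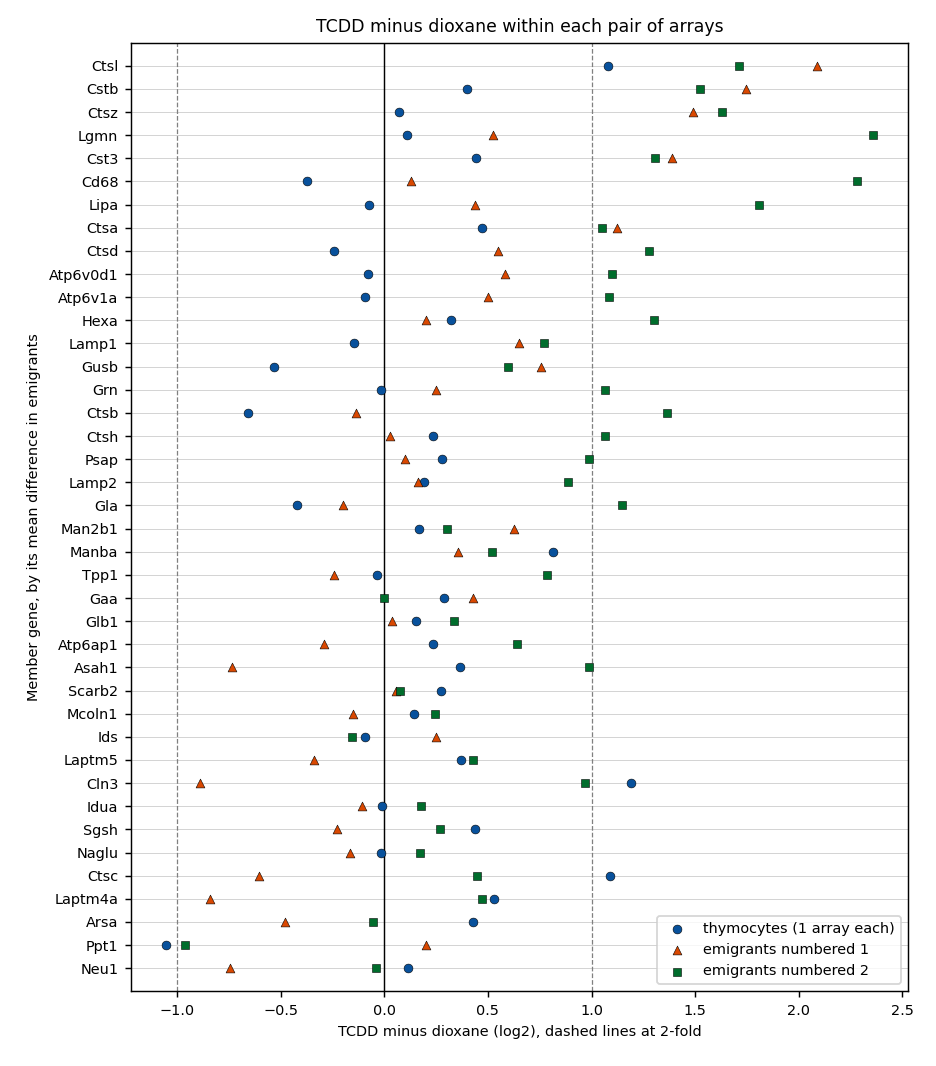
TCDD minus dioxane (horizontal axis, log2) for each of the 40 genes (vertical axis, ordered by the mean of both emigrant pairs) in thymocytes, emigrants 1 and emigrants 2, 1 array against 1 in each, with dashed lines at 2-fold. For Ctsl, Cstb, Ctsz, Cst3 and Ctsa both emigrant points lie beyond 2-fold, and for Ctsl the thymocyte point does too.

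The emigrant arrays were also set against each other by their number, 1 TCDD array against 1 dioxane array. In emigrants 1 the median difference of the 40 genes was 0.15, with 25 higher with TCDD (48.2% of all genes), and in emigrants 2 it was 0.83, with 35 higher (45.3% of all genes). In emigrants 1, 5 members were at least 2-fold higher, against 3.66% of all genes, and in emigrants 2, 16 were, against 3.43%. Members at least 2-fold lower numbered 0 in emigrants 1 (2.56% of all genes) and 0 in emigrants 2 (2.16%). The 5 members at least 2-fold higher in both, against 0.629% of all genes, were Cst3, Cstb, Ctsa, Ctsl and Ctsz. Their differences in emigrants 1 and 2 were 1.39 and 1.31 for Cst3, 1.75 and 1.52 for Cstb, and 1.12 and 1.05 for Ctsa. They were 2.09 and 1.71 for Ctsl and 1.49 and 1.63 for Ctsz. For Cst3, Cstb, Ctsa and Ctsz the emigrant groups did not overlap, while Ctsl with dioxane in emigrants 2 (10.49) was above Ctsl with TCDD in emigrants 1 (10.04), which left its difference at 1.90 ± 1.12.

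The other 11 members past 2-fold in emigrants 2 had smaller values in emigrants 1. They were Lgmn (0.52 in emigrants 1 and 2.36 in emigrants 2), Cd68 (0.13 and 2.28), Lipa (0.44 and 1.81) and Ctsb (-0.14 and 1.36). Hexa (0.20 and 1.30), Ctsd (0.55 and 1.28), Gla (-0.20 and 1.15) and Ctsh (0.03 and 1.07) followed. Atp6v0d1, a subunit of the membrane sector of the pump, measured 6.00 with dioxane and 5.92 with TCDD in thymocytes, 6.53 and 7.11 in emigrants 1, and 6.69 and 7.79 in emigrants 2. Atp6v1a, the catalytic subunit, measured 8.98 with dioxane and 8.88 with TCDD in thymocytes, 9.16 and 9.66 in emigrants 1, and 8.57 and 9.65 in emigrants 2. Grn differed by 0.25 and 1.06. Of these 11, Ctsb, Ctsh, Gla and Grn had overlapping emigrant groups, with dioxane emigrants 1 above at least 1 TCDD array. The other 7 did not overlap on the probe sets used. On its other probe set Atp6v1a overlapped, with 8.02 in dioxane emigrants 1 and 7.92 in TCDD emigrants 1. Another probe set of Lipa overlapped too, with 7.07 in dioxane emigrants 1 and 6.95 in TCDD emigrants 2.

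Most members had emigrant differences within 1 log2 unit. Ctsd and Atp6v0d1 stood at 0.91 and 0.84, Grn, Ctsb and Ctsh at 0.66, 0.61 and 0.55, and Gla at 0.47. Also above 0 were Hexa, Gusb, Lamp2 and Psap at 0.75, 0.68, 0.53 and 0.54, then Man2b1 and Manba at 0.46 and 0.44. Tpp1 read 0.27, Gaa 0.21, Glb1 0.19, Atp6ap1 0.17 and Asah1 0.13. Scarb2, Mcoln1, Ids, Laptm5, Cln3, Idua, Sgsh and Naglu lay between 0.00 and 0.07, which is no more than their SE. The 5 members that were lower with TCDD were Neu1 (-0.39 ± 0.28), Ppt1 (-0.38 ± 0.49), Arsa (-0.27 ± 0.25), Laptm4a (-0.18 ± 0.61) and Ctsc (-0.08 ± 0.57). The sign of the emigrant difference depended on the probe set for 9 members (Ctsb, Gla, Ids, Idua, Laptm5, Lipa, Neu1, Scarb2 and Tpp1). Lipa, at 1.12 on the probe set used, had -0.37 on the lowest of its 3.

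Other measures moved with the treatment in emigrants. The macrophage markers had median differences of 0.08 in emigrants 1 and 1.53 in emigrants 2. Higher with TCDD were 13 and 23 of 24, against 48.2% and 45.3% of all genes. Both TCDD arrays were above both dioxane arrays for 7 of 24, against 10.5% of all genes. Their summed level was 14.15 with dioxane and 14.33 with TCDD in emigrants 1, and 12.14 and 13.59 in emigrants 2. The pair with the larger macrophage difference was therefore the pair with the larger lysosomal difference, and the part of macrophage RNA was not tested. In emigrants 1, 4 of the 24 were at least 2-fold higher with TCDD, against 3.66% of all genes: Lyz2 by 2.00, Cd14 by 1.97, Apoe by 1.52 and Cx3cr1 by 1.34. At least 2-fold lower was 1, Mrc1 at -1.14, against 2.56% of all genes. The 15 stromal markers summed to 8.66 and 9.11 in emigrants 1 and to 8.74 and 10.80 in emigrants 2, again with dioxane first, and to 10.50 and 10.54 in thymocytes. Neutrophil markers had median differences of 0.65 and 1.03 in emigrants 1 and 2. In emigrants 1 they ran from -0.28 (Cxcr2) to 3.02 (S100a9), and Ngp (-0.11) and Csf3r (-0.01) were also lower with TCDD. In emigrants 2 Mpo (-0.20) and Prtn3 (-0.07) were lower. The 3' minus 5' signal of the actin control was 3.06 and 3.77 in emigrants 1, 3.01 and 3.36 in emigrants 2, and 3.48 and 4.15 in thymocytes, so it was higher with TCDD in each pair. That of Gapdh was 4.75 and 5.60 in emigrants 1, 4.69 and 4.75 in emigrants 2, and 6.10 and 5.86 in thymocytes, higher with TCDD in emigrants 1 and lower in thymocytes. The AHR targets, as given above, were higher with TCDD in emigrants 2 and not as a list in emigrants 1. The part of these measures in the lysosomal values was not tested.

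The 2 control arrays of the emigrants also differed from each other. Members at least 2-fold higher in dioxane emigrants 1 than in dioxane emigrants 2 numbered 11, against 4.71% of all genes: Asah1, Atp6ap1, Cd68, Ctsb, Ctsc, Ctsh, Grn, Hexa, Lamp2, Laptm4a and Lipa. Those at least 2-fold lower numbered 3, against 7.83%: Ctsl, Gusb and Ppt1. Cst3 (6.62 and 6.69), Lgmn (5.60 and 5.62), Man2b1 (8.35 and 8.37) and Psap (10.19 and 10.26) were close on these 2 arrays. The spread therefore differed between members, and it was small for the cystatins.

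Thymocytes were read for a shift of their own. Their DN fraction was poor in macrophage transcripts, and 1 array with TCDD was set against 1 with dioxane, so there is no replicate check and no p. The median difference of the 40 genes was 0.16 against 0.01 over all genes, and 25 of 40 were higher with TCDD, against 51.5% of all genes. At least 2-fold higher were 3 members, against 2.83% of all genes: Cln3, Ctsc and Ctsl. At least 2-fold lower was 1, against 2.79%: Ppt1. Cln3, a membrane protein of lysosomes that is mutated in juvenile ceroid lipofuscinosis, measured 5.90 with dioxane and 7.09 with TCDD in thymocytes, 7.04 and 6.16 in emigrants 1, and 6.45 and 7.42 in emigrants 2. It was thus higher with TCDD in thymocytes and emigrants 2 and lower in emigrants 1. Ctsc was higher with TCDD in thymocytes by 1.09 and in emigrants 2 by 0.45, and differed by -0.60 in emigrants 1. Ppt1 read -1.05 in thymocytes, 0.20 in emigrants 1 and -0.96 in emigrants 2.

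Most of the members with the largest TCDD difference in emigrants had a small one in thymocytes. Cstb was higher with TCDD in thymocytes by 0.40, Cst3 by 0.44 and Ctsa by 0.47. Ctsz (0.07), Lgmn (0.11), Lipa (-0.08), Atp6v0d1 (-0.08) and Atp6v1a (-0.09) were near 0. Cd68 (-0.37), Ctsd (-0.24), Lamp1 (-0.15), Gusb (-0.53), Gla (-0.42) and Ctsb (-0.66) read lower with TCDD. Manba was higher by 0.81, Laptm4a by 0.53, Sgsh by 0.44 and Arsa by 0.43. The other members lay between -0.09 and 0.37.

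Ctsl was the member at least 2-fold higher with TCDD in all 3 pairs, against 0.178% of all genes, at 1.08 in thymocytes and 2.09 and 1.71 in emigrants. Its 3 TCDD arrays and 3 dioxane arrays nevertheless overlapped, because dioxane emigrants 2 (10.49) read above TCDD thymocytes (9.71) and TCDD emigrants 1 (10.04). Of the 40 genes 14 were higher with TCDD in all 3 pairs, against 15.4% of all genes, and 0 were lower in all 3, against 17.4%. For Cstb and Manba all 3 TCDD arrays were above all 3 dioxane arrays, against 3.47% of all genes. In the thymocyte pair the macrophage markers had a median difference of 0.05, but 4 of 24 were at least 2-fold higher with TCDD, against 2.83% of all genes. These were Fcer1g (5.55 with dioxane and 7.75 with TCDD), Ly86 (6.31 and 8.61), Ccr2 (4.68 and 6.68) and Tyrobp (6.21 and 7.56), and the class II gene H2-Aa measured 8.08 and 10.25. The macrophage markers Csf1r (7.54 and 7.57) and Adgre1 (6.00 and 5.59) were close or lower. The part of these cells in the thymocyte values was not tested.

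Over both sources together, with cell source in the model and 3 TCDD arrays against 3 dioxane arrays, the median difference of the 40 genes was 0.34 against -0.02 over all genes. Here too 35 of 40 were above 0, against 47.2% of all genes. By limma 0 genes passed the adjusted p (0.0% called), 659 had an unadjusted p under 0.05, and the smallest adjusted p was 0.483 over all genes and 0.811 among the members. Members higher at an unadjusted p under 0.05 were 5, against 2.69% of all genes: Cstb (1.22 ± 0.29), Ctsz (1.06 ± 0.39), Cst3 (1.05 ± 0.23), Ctsa (0.88 ± 0.21) and Manba (0.56 ± 0.17). Those lower were 0, against 2.63%. Ctsl had the largest difference, 1.63 ± 0.85, and Ppt1 the lowest, -0.61 ± 0.38. Without both emigrant arrays numbered 1 the median was 0.50. Without dioxane emigrants 2 the median was 0.16, and without TCDD emigrants 2 it was 0.24. This comparison shares its emigrant arrays with the comparison within emigrants and adds the thymocyte pair, which took every difference of the 5 members but that of Manba closer to 0.

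Whether the TCDD difference itself differed between the sources was tested by an interaction term, with the lone thymocyte arrays taken to vary like the emigrant arrays. The median of the 40 genes was 0.31, that is larger in emigrants, against -0.02 over all genes, and 27 of 40 were above 0, against 47.6%. By limma 0 genes passed the adjusted p (0.0% called), the smallest adjusted p was 1, and 97 genes had an unadjusted p under 0.05. One member was among them, Cstb at 1.24 ± 0.41, against 0.452% of all genes. A larger value stood against a larger error for Cd68 (1.58 ± 0.97), Ctsz (1.49 ± 0.60) and Lgmn (1.33 ± 1.12). The lowest were Ctsc (-1.17 ± 0.98) and Cln3 (-1.15 ± 0.88). No difference in response between emigrants and thymocytes was therefore resolved for any of the 40 genes with these arrays.

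A further 135 genes of the lysosome and its regulation were listed, and 108 of them were measured. Over both sources 0 of the 108 passed the adjusted p by limma, 12 were higher and 2 lower at an unadjusted p under 0.05 (2.69% and 2.63% of all genes), and the median difference was 0.11. In emigrants the median was 0.10 with TCDD, with 9 higher and 0 lower at an unadjusted p under 0.05 (1.24% and 0.815%). Between emigrants and thymocytes it was 0.16, with 18 higher and 0 lower (3.2% and 3.9%). The differences of this wider list were thus smaller than those of the 40 genes, and this was not tested.

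The named genes of the wider list are the largest and lowest differences over both sources in each group. Of 23 other hydrolases 4 were higher and 0 lower at an unadjusted p under 0.05. Ifi30, the thiol reductase of antigen-processing compartments, stood at 1.48 ± 0.20 with an adjusted p of 0.742 (limma), and Gm2a, the activator of ganglioside degradation, at 1.15 ± 0.28. Galc and Hgsnat were lowest at -0.46 and -0.14. Ifi30 measured 6.10 with dioxane and 7.22 with TCDD in thymocytes, 7.66 and 9.19 in emigrants 1, and 7.29 and 9.07 in emigrants 2, higher with TCDD in each pair. Of 14 other proteases and inhibitors 0 were higher and 0 lower by that p, with the carboxypeptidase Scpep1 at 1.16 ± 0.67, Serpinb6b at 0.98 ± 0.93, Ctse at -0.50 and Cst6 at -0.36. Of 22 membrane and transport genes 3 were higher and 1 lower, with Gpnmb, a glycoprotein of phagocyte lysosomes, at 1.46 ± 0.95, the peptide transporter Slc15a3 at 1.35 ± 0.39, Slc29a3 at -0.56 and Mcoln3 at -0.45. Of 13 other pump subunits 3 were higher and 1 lower, with Atp6v0b at 0.89 ± 0.27, Atp6v0e at 0.80 ± 0.31, Atp6v0a2 at -0.51 and Atp6v0a1 at -0.21.

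Of 23 sorting and regulator genes 2 were higher and 0 lower by the same p. Lamtor5, a subunit of the complex that holds mTORC1 at the lysosome, was at 0.85 ± 0.28 and Mitf, a relative of TFEB, at 0.76 ± 0.45, while Gga2 and Sort1 were at -0.59 and -0.33. Of 13 autophagy genes 0 were higher and 0 lower, with Gabarap at 0.51 ± 0.25, Gabarapl1 at 0.43, Becn1 at -0.38 and Uvrag at -0.23. Tfeb, named after its values were seen, measured 6.09 with dioxane and 6.08 with TCDD in thymocytes, 6.31 and 6.25 in emigrants 1, and 5.99 and 5.96 in emigrants 2. Its TCDD difference in emigrants was -0.05 ± 0.26. As a description, the 14 members with CACGTG had a median TCDD difference in emigrants of 0.34 and the 22 without it 0.45. For emigrants against thymocytes these medians were 0.30 and 1.01.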

How the data were processed

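RNA of pooled DN cells was amplified and hybridised to 6 Affymetrix arrays, per the labels. The deposited values are RMA summaries on the log2 scale, per the submitters' processing notes, and the series text names the affy package, with no version among the sources used here. Such values carry no detection calls, understate the differences of dim genes and have no read depth, so that the number of arrays limits the precision. Values were used as deposited. Left out of 22690 probe sets were 64 controls, 691 that named several genes and 1555 that named no gene. The limma package (3.58.1, R 4.3.3) fitted all 12393 genes by lmFit and eBayes, with Benjamini-Hochberg adjustment over all of them and calls at an adjusted p under 0.05. The fits were also run on simulated data with noise drawn independently for each array, which does not cover arrays that vary together. Thymocytes had no test and were read at 2-fold. The median SE over genes was 0.288 within emigrants, 0.210 over both sources, 0.223 between sources and 0.500 for the interaction.

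The genes and lists were chosen with earlier results of these data known, and so no set test or p over a list was computed. All members were named, with all 6 values for cysteine cathepsins, cystatins, members past 2-fold in a pair and the 5 largest differences in each direction between sources. Genes of the wider list were named by the 2 largest differences per group and direction. The labels share replicate numbers between emigrant groups without saying that a number marks a culture. Alternatives covered normalisation, low values, probe sets, the variance prior, the replicate block and left-out arrays.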

Additional observations from a re-analysis of the deposited data

How the results depend on the processing

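No member passed an adjusted p of 0.05 within emigrants, over both sources or for the interaction under any alternative run with limma: cyclic loess or quantile normalisation, centring, only the genes from the median level upward, the mean of probe sets, an intensity trend, a threshold of 0.10 instead or the replicate block, nor with any emigrant array left out, nor, over both sources, with a thymocyte array or both emigrant arrays of a number left out. Between emigrants and thymocytes 2 of the 40 genes passed with the replicate number as a block (Ctsh and Lamp2, smallest adjusted p of a member 0.0403), against 160 of all 12393 genes. Without both emigrant arrays numbered 2, 8 passed, against 225 of all genes (1.82%). That leaves the arrays numbered 1, rich in macrophage, neutrophil and erythroid RNA, against thymocytes, with 1 array per source and treatment. These 8 calls therefore assume an equal TCDD difference in both sources. The same-number emigrant arrays deviated together (r = 0.56 across genes), but 2 numbers do not show pairing, and the block left the emigrant comparison at 0 calls.

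Leaving out 1 array at a time gave medians over the 40 genes of 0.11 to 0.66 within emigrants, 0.16 to 0.47 over both sources, 0.64 to 1.10 between sources and 0.14 to 0.46 for the interaction, each with 0 members past the adjusted p. The lowest came without dioxane emigrants 2, or, between sources, without the thymocyte TCDD array. The interaction could not be fitted without a thymocyte array. On its other probe set Scarb2 read -0.036 between sources. The sign of the source difference depended on the probe set for 7 members (Gaa, Ids, Idua, Neu1, Ppt1, Scarb2 and Sgsh). In thymocytes 4 to 6 members passed the fold under other normalisations, probe set summaries or a limit of 1.5-fold, with medians of 0.13 to 0.21. The share of all genes under these settings is not given here, so these counts cannot be set against it. Low values limit Naglu, Gla and Lgmn. The causes were not tested.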
